A study of Mus musculus with 26 samples.

Results

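The genes described here copy chromosomal DNA and supply the nucleotides for it. There are 43 of them, listed by function with earlier results of these data known, and all 43 had an array probe set annotated with their symbol alone, among 19937 genes measured. They fall into 8 roles: origin recognition and licensing (5 genes), the MCM helicase (6), origin firing (6), the sliding clamp and its loader (6), DNA polymerases and primase (8), single-strand binding and strand maturation (3), nucleotide supply (5), and chromatin and histone mRNA (4).

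All 26 samples were mouse cells of the C57BL/6 strain, hybridised to Affymetrix gene arrays. In vitro immortalized lines derived from long-term haematopoietic stem cells (LT-HSC), here called LT lines, were harvested from liquid medium with doxycycline (dox) labelled 48 h (2 arrays, lines B6-2 and B6-3) or 72 h (3 arrays, B6-1, B6-2 and B6-3). The same lines without dox gave 3 arrays at each time. Lines derived from granulocyte-macrophage progenitors (GMP), here called GMP lines, were measured at 48 h with dox (4 arrays, lines B6-1, B6-2, B6-3 and F6-6) and without it (3 arrays, the same lines except B6-1). The sorted cells were wild-type GMP (4 arrays) and wild-type LT-HSC (4 arrays), both taken from bone marrow by flow cytometry and not cultured. The series names the leukaemia fusion MLL-AF9, which dox switches on in such lines. The promoter driving it, and whether hours were counted from adding or removing dox, are not stated in the labels. Nor do they say whether an LT line and a GMP line that share a number came from the same animal. Replicates are labelled biological.

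A cell starts replication by loading the MCM helicase onto origins bound by the origin recognition complex, with the help of Cdc6 and Cdt1. Kinases then fire the origin: Cdc45 and the GINS complex join MCM, primase and DNA polymerase alpha lay primers, and polymerases delta and epsilon extend the strands behind the Pcna clamp. Ribonucleotide reductase (Rrm1 and Rrm2), thymidylate synthase (Tyms), thymidine kinase (Tk1) and dUTPase (Dut) keep the deoxynucleotide pools filled. Most stem cells of the bone marrow rest outside the cell cycle, whereas GMP divide often, and many of these genes are known targets of E2F factors.

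Values are log2 signals as deposited, differences are log2 differences with their standard error (SE), and a gene was called at a limma adjusted p under 0.05 over all 19937 genes. Array medians lay between 5.81 and 5.91, and every group mean of every one of the 43 genes lay above the median of all values, 5.86. The sorted cells had the markers of their labels. The median of 5 primary granule genes lay between 10.56 and 10.76 on sorted GMP arrays and between 5.51 and 6.52 on sorted LT-HSC arrays. The median of 8 stem cell genes lay between 5.23 and 5.44 in GMP and between 8.05 and 8.54 in LT-HSC. B cell genes had array medians of at most 4.32 in every group. In bulk RNA, fewer replicating cells and less replication RNA per cell cannot be told apart.

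The promoters of the members with the largest sorted-cell differences are shown first because they carry, or lack, the E2F letters searched for below. Each is a 300-base window, from 250 bases before the start to 50 after it, from RefSeq on GRCm38.p6, written 5′ to 3′ on the strand of the gene. The Rrm2 window is chr12:24708004-24708303 on the plus strand, and the Cdc6 window is chr11:98907901-98908200 on the plus strand. The Cdc6 window is placed on a start that lies inside the annotated gene, whose own first base is at 98907709, so the whole window is within the gene. The Cdc45 window is chr16:18811923-18812222 on the minus strand. Capitals mark an E2F core match on the opposite strand, starting at position -235 in Rrm2 (the reverse complement of TTGCCGC) and -138 in Cdc6 (the reverse complement of TTCCCGC). The Cdc45 window held no match. Gins1 was not in the promoter table.
Rrm2: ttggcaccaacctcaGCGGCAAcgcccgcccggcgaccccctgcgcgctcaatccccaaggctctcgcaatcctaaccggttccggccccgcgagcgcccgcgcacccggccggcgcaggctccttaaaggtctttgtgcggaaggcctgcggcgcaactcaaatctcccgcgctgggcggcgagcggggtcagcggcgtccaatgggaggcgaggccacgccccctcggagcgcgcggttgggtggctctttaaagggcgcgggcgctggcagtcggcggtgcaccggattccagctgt
Cdc6: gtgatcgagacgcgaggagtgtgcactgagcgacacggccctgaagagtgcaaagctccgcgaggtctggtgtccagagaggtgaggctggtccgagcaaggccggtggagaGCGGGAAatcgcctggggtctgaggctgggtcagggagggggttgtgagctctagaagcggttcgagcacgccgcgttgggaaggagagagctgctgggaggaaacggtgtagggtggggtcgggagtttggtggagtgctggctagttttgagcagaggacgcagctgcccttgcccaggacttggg
Cdc45: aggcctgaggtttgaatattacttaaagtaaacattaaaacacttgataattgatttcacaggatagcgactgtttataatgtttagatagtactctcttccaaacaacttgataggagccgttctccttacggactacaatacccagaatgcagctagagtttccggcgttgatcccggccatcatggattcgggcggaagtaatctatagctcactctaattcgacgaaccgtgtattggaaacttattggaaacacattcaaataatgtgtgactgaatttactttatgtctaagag

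The table held windows for 36 of the 43 genes. The E2F core was searched as TTCCCGC or TTGGCGC or TTCGCGC or TTGCCGC on both strands. It was in the windows of 23 of the 36 genes (63.9%), against 10.9% of all 27025 genes in the table. Its share was 56.7% in 30 other replication genes, 50% in 18 E2F and G1/S regulators, 34.6% in 26 other nucleotide genes and 19% in 21 mitosis genes. Another T in front of the core left 14 of the 36 genes (38.9%), against 2.6% of all genes. Genes with a core match included Orc1, Cdt1, Mcm3, Mcm5, Mcm6, Mcm7, Pola1, Pole2, Lig1, Rrm1 and Uhrf1. Genes without one included Mcm2, Mcm10, Pcna, Pold2, Tyms, Tk1, Dut and Slbp.

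Other motifs were distributed otherwise. CCAAT, the letters bound by NF-Y, was in 63.9% of the 36 genes, 85.7% of 21 mitosis genes and 41.1% of all genes. The cell cycle homology region, searched as TTTGAA or TTCGAA, is known from late cell cycle promoters. It was in 19.4% of the 36 genes, 76.2% of the mitosis genes and 21.7% of all genes. GGGCGG, the Sp1 box, was in 75% of the 36 genes and 38.2% of all genes. Its share was 86.7% in 30 other replication genes, 88.5% in 26 other nucleotide genes, 88.9% in 18 E2F and G1/S regulators and 85.7% in the mitosis genes. The windows of the 36 genes had a median GC content of 58.3%, against 52.7% over all windows, and these shares were not adjusted for it. A match describes letters, not binding.

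**Figure D1:**
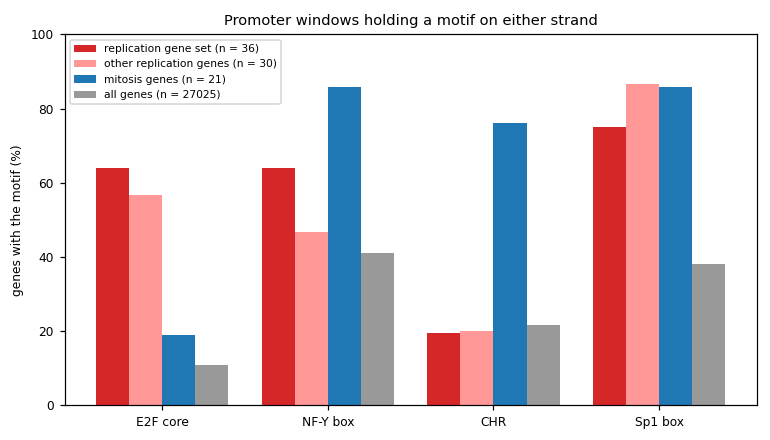
Share of genes (%, vertical axis) whose promoter window holds a motif on either strand, for the replication gene set, other replication genes, mitosis genes and all genes in the table. The E2F core is in 63.9% of the replication gene set and 10.9% of all genes, whereas the cell cycle homology region (CHR) is in 19.4% and 21.7%.

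Across the 8 groups the 43 genes were lowest on average in sorted LT-HSC and highest in sorted GMP. The median of the 43 group means was 8.32 and 8.37 in LT lines with and without dox at 48 h. It was 8.36 and 8.16 in those lines with and without dox at 72 h, and 8.36 and 8.24 in GMP lines with and without dox. It was 8.56 in sorted GMP and 8.05 in sorted LT-HSC. Sorted GMP held the highest mean of 33 genes and sorted LT-HSC the lowest of 24. Of the other minima, 11 lay in LT lines without dox at 72 h, 7 in GMP lines without dox and 1 in GMP lines with dox. Chaf1b, a subunit of the chromatin assembly factor that places histones behind the fork, was the only gene highest in sorted LT-HSC.

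**Figure D2:**
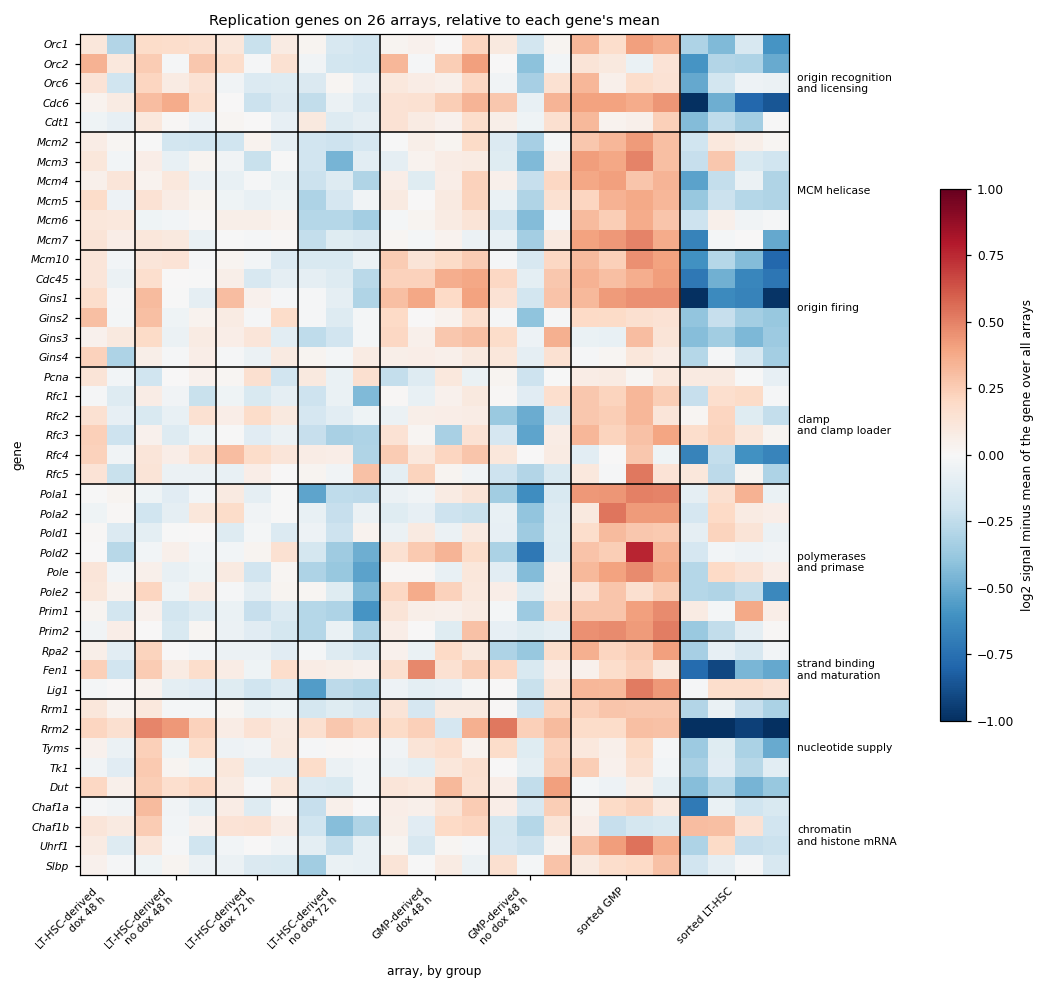
Log2 signal of each of the 43 genes (rows, by role) on each of the 26 arrays (columns, by group), minus the mean of that gene over all arrays. Colours end at -1 and 1. The group mean is highest in sorted GMP for 33 rows and lowest in sorted LT-HSC for 24, and the rows of Cdc6, Gins1 and Rrm2 reach furthest below 0 in sorted LT-HSC.

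The range between the highest and lowest group mean, by the brightest probe set of each gene, ran from 0.15 for Pcna to 1.67 for Rrm2. Among the 6 cultured groups alone the largest range was 0.62, for Pold2. Rrm2, the small subunit of ribonucleotide reductase, had cultured group means between 9.81 and 10.10, close to the 9.95 ± 0.06 of sorted GMP (SD, n = 4) and apart from the 8.43 ± 0.34 of sorted LT-HSC (SD, n = 4). Cdc6, which loads MCM, had cultured means between 7.87 and 8.29, all between sorted GMP at 8.42 ± 0.03 and sorted LT-HSC at 7.21 ± 0.24 (SD, n = 4 each). Mcm5, a helicase subunit, had cultured means between 8.29 and 8.56, again between the 8.78 ± 0.07 of sorted GMP and the 8.17 ± 0.07 of sorted LT-HSC (SD, n = 4 each).

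Tyms, which makes dTMP, had cultured means between 8.48 and 8.61, with 8.57 ± 0.09 in sorted GMP and 8.16 ± 0.16 in sorted LT-HSC (SD, n = 4 each). Slbp, which binds the stem-loop of histone mRNA, had cultured means between 8.60 and 8.91, with 8.96 ± 0.08 in sorted GMP and 8.65 ± 0.08 in sorted LT-HSC (SD, n = 4 each). By the brighter of its probe sets, Pcna stayed between 11.82 and 11.97 in all 8 groups, and replicates of one group spread by up to 0.18 (SD). Its second probe set ran from 11.29 in LT lines without dox at 72 h to 11.60 in sorted GMP, with 11.55 in sorted LT-HSC. The second probe set of Slbp ran from 8.31 in sorted LT-HSC to 8.82 in sorted GMP.  RefSeq names 2 pseudogenes after Pcna and 1 after Tyms, so the signals of both are uncertain as measures of the coding gene alone. Tk1, Pcna and Slbp each have 2 probe sets, and which of them reads the coding gene was not tested. Probe set numbers of the other genes run by chromosome. The brighter Pcna number falls between those of chromosomes 17 and 19, and 1 Pcna pseudogene is on chromosome 19. The second falls after those of chromosome 2, which holds Pcna. The brighter Tk1 number falls after those of chromosome 8, although Tk1 is on chromosome 11. The brighter Slbp number falls among those of its own chromosome 5.

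**Figure D3:**
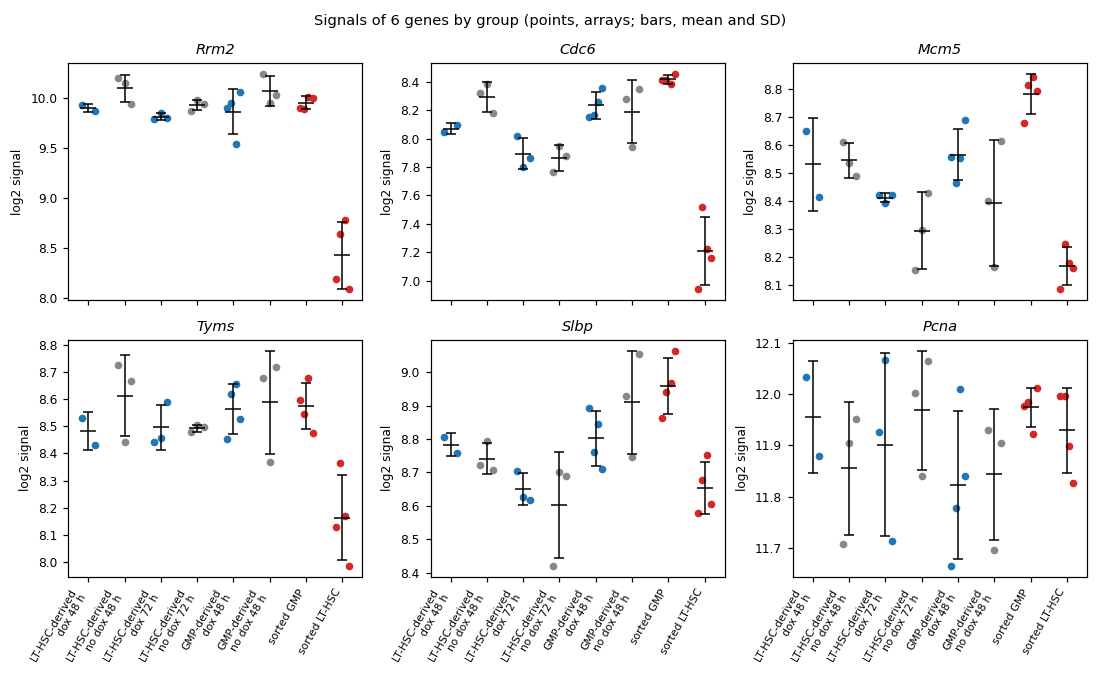
Log2 signal (vertical axis, one scale per gene) of 6 genes by group; points are arrays, bars the mean and SD, blue with dox, grey without dox and red sorted cells. Rrm2, Cdc6, Mcm5 and Tyms are lowest in sorted LT-HSC, and Pcna, by its brighter probe set, lies between 11.82 and 11.97 on average in every group.

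How the set differs between progenitor and stem cell was read from the sorted cells, GMP over LT-HSC. Of the 43 genes, 39 rose and none fell in GMP, where 16.8% of all genes were called higher and 15.3% lower. The median difference of the 43 was 0.42, against -0.01 over all genes. The 4 largest differences were those of Rrm2, Gins1, Cdc6 and Cdc45.

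Rrm2 read 9.90, 9.89, 10.01 and 10.004 on the GMP arrays, against 8.20, 8.64, 8.78 and 8.09 on the LT-HSC arrays. The GMP arrays lay within a narrow band above all LT-HSC arrays, which were spread out, with a difference of 1.52 ± 0.12 (SE; adjusted p = 2.87e-10). Gins1, a subunit of the GINS complex, read 9.10, 9.21, 9.24 and 9.24 in GMP, against 7.54, 8.14, 8.11 and 7.80 in LT-HSC. The groups were apart by more than either spread, with a difference of 1.30 ± 0.12 (SE; adjusted p = 5.21e-09). Cdc6 read 8.41, 8.41, 8.38 and 8.46 in GMP, against 6.94, 7.52, 7.22 and 7.16 in LT-HSC, a difference of 1.20 ± 0.10 (SE; adjusted p = 4.38e-10). All 4 GMP arrays were above all 4 LT-HSC arrays for it. Cdc45, the helicase cofactor, read 9.12, 9.08, 9.14 and 9.20 in GMP, against 8.06, 8.30, 8.13 and 8.06 in LT-HSC. Its difference was 1.00 ± 0.08 (SE; adjusted p = 4.37e-10), and its groups did not overlap.

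By role, all 5 licensing genes rose, the origin recognition subunits Orc1, Orc2 and Orc6 by 0.70, 0.50 and 0.38 and Cdt1 by 0.42. All 6 subunits of the MCM helicase rose, with Mcm7 at 0.72 the most and Mcm2 at 0.34 the least. In origin firing, Mcm10, Gins2, Gins3 and Gins4 rose by 0.88, 0.51, 0.47 and 0.25 beside Cdc45 and Gins1. All 5 nucleotide supply genes rose, with Rrm1 at 0.49, Tyms at 0.41, Dut at 0.36 and Tk1 at 0.31. Fen1, the flap nuclease that trims Okazaki fragments, rose by 0.80, the single-strand binding subunit Rpa2 by 0.46 and DNA ligase Lig1 by 0.28.

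Among clamp and clamp loader genes, Rfc4 rose by 0.58, and Rfc5, Rfc2 and Rfc1 by 0.30, 0.28 and 0.24. Among polymerase genes, the primase subunit Prim2 rose by 0.64, the epsilon subunits Pole2 and Pole by 0.57 and 0.36, the delta subunits Pold2 and Pold1 by 0.48 and 0.20, and the alpha subunits Pola1 and Pola2 by 0.38 and 0.32. Uhrf1, which brings maintenance methylation to new DNA, rose by 0.55, and Chaf1a and Slbp by 0.42 and 0.31. Gins4, Rfc2, Rfc5, Pola2 and Pold1 were called although their 2 groups of arrays overlapped.

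The 4 genes that did not pass were Pcna, Rfc3, Prim1 and Chaf1b. Pcna read 11.98, 11.98, 11.92 and 12.01 in GMP, against 12.00, 12.00, 11.90 and 11.83 in LT-HSC, with a difference of 0.04 ± 0.08 (SE; adjusted p = 0.776). Its second probe set differed by 0.05 (adjusted p = 0.564). Chaf1b read 7.36, 7.07, 7.12 and 7.15 in GMP, against 7.60, 7.59, 7.44 and 7.10 in LT-HSC. It was the single gene of the set with a negative difference, -0.26 ± 0.11 (SE; adjusted p = 0.0654), which passed without LT-HSC replicate 4 (-0.37; adjusted p = 0.0055), whose 7.10 lay among the GMP arrays, or without GMP replicate 1 (-0.32; adjusted p = 0.0311). Prim1 differed by 0.23 ± 0.10 (SE; adjusted p = 0.0785) and passed without LT-HSC replicate 3 (0.32; adjusted p = 0.0154). Rfc3 differed by 0.18 ± 0.11 (SE; adjusted p = 0.267). Second probe sets of Tk1 and Slbp gave 0.56 (adjusted p = 0.0096) and 0.51 (adjusted p = 1.34e-05), against 0.31 for both genes from the brighter probe set.

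Neighbouring gene lists are given by their counts. Of 37 other replication genes, 27 were called higher and 1 lower, with Gmnn (geminin, the Cdt1 inhibitor) at 1.16, Ticrr at 1.12 and Rpa3 at 0.89. Of 27 other nucleotide genes, 15 were called higher and 2 lower, led by Nme2 at 0.77, Umps at 0.69 and Gart at 0.59. Of 23 E2F and G1/S regulators, 10 were higher and 4 lower, with Cdkn2c at 1.24, E2f8 at 1.16 and Tfdp2 at -0.89. All 23 mitosis genes were called higher, with a median of 0.86, led by Aurka at 1.43. Markers of the cell types differed as well: 5 of 5 primary granule genes, 7 of 8 monocyte and macrophage genes (median 2.39) and 5 of 6 mast cell and basophil genes (median 1.79) were higher. The other mast cell and basophil gene was called lower, at -1.37. Of 11 late neutrophil genes 4 were called higher and 0 lower, with a median of -0.01. All 8 stem cell genes and all 5 megakaryocyte genes were lower, and the part of these markers in the result was not tested.

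**Figure D4:**
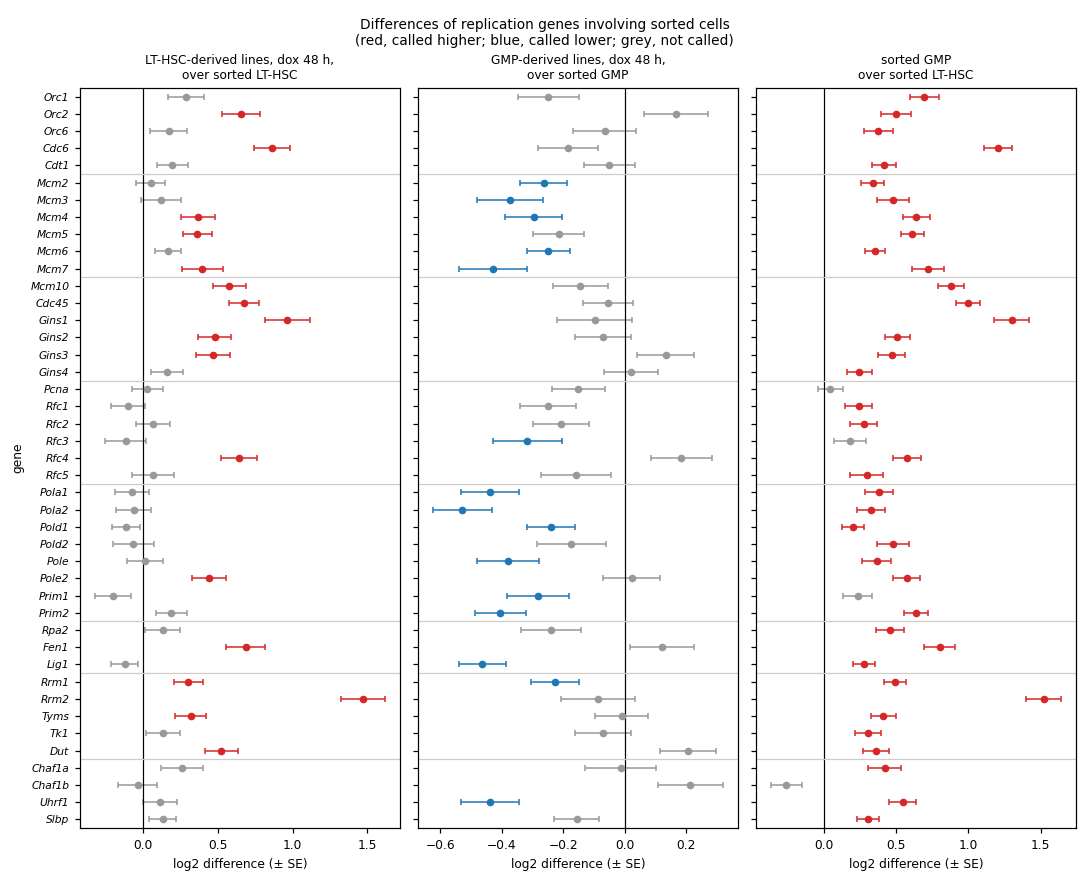
Log2 difference ± SE (horizontal axis, one scale per panel) of each of the 43 genes for lines with dox over sorted cells and for sorted GMP over sorted LT-HSC; red is called higher, blue called lower and grey not called. There are 17 red points in the LT line panel, 15 blue points in the GMP line panel and 39 red points in the sorted panel.

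LT lines with dox at 48 h were compared with sorted LT-HSC, which also served in the comparison above. Of the 43 genes, 17 rose and none fell in the lines, where 14.6% of all genes were called higher and 14.6% lower (29.2% in either direction). The median difference was 0.17, against -0.03 over all genes. Leaving out dox replicate 1 (line B6-2) left 10 genes called, with the spread of the other dox array then taken from the other groups.

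Rrm2 read 9.93 and 9.87 in the lines, against 8.20, 8.64, 8.78 and 8.09 in sorted LT-HSC, and rose by 1.47 ± 0.15 (SE; adjusted p = 2.58e-08). Gins1 read 8.95 and 8.77 in the lines, against 7.54, 8.14, 8.11 and 7.80, and rose by 0.96 ± 0.15 (SE; adjusted p = 1.56e-05). Cdc6 read 8.04 and 8.10, against 6.94, 7.52, 7.22 and 7.16 in sorted LT-HSC, and rose by 0.86 ± 0.12 (SE; adjusted p = 3.74e-06). For all 3 genes both line arrays were above every LT-HSC array. Fen1 read 7.21 and 6.79, against 6.21, 6.06, 6.52 and 6.46, and rose by 0.68 ± 0.13 (SE; adjusted p = 0.000163), its line arrays far apart but still above all LT-HSC arrays.

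The calls were unevenly spread over the roles. Of 6 origin firing genes 5 rose, with Cdc45 at 0.67, Mcm10 at 0.57, Gins2 at 0.48 and Gins3 at 0.46 beside Gins1. Of 5 nucleotide supply genes 4 rose, with Dut at 0.52, Tyms at 0.32 and Rrm1 at 0.30 beside Rrm2. Orc2 at 0.65 and Cdc6 rose among 5 licensing genes, and Mcm7, Mcm4 and Mcm5 at 0.40, 0.37 and 0.36 among 6 MCM subunits. Of the 8 polymerase and primase genes only Pole2 rose, by 0.44, and 5 of the 8 had negative differences. Of the 6 clamp and loader genes only Rfc4 rose, by 0.64, and none of the 4 chromatin and histone mRNA genes was called.

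Of 37 other replication genes 16 were called higher and 1 lower, with Gmnn at 1.30, Rpa3 at 1.16 and Asf1b at 0.95. Of 23 mitosis genes 21 were higher and none lower, led by Aurka at 1.18. Of 27 other nucleotide genes 8 were higher and 1 lower, and of 23 E2F and G1/S regulators 8 were higher and 4 lower. Cell type markers moved in the same comparison: 5 of 5 primary granule, 7 of 11 late neutrophil, 7 of 8 monocyte and macrophage and 4 of 6 mast cell and basophil genes were higher. All 8 stem cell genes and all 5 megakaryocyte genes were lower, and their part was not tested.

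GMP lines with dox were next set against sorted GMP. Of the 43 genes, none rose and 15 fell, where 10% of all genes were called higher and 9.76% lower (19.8% in either direction). The median difference was -0.17, against -0.02 over all genes. The 4 largest decreases were those of Pola2, Lig1, Pola1 and Uhrf1.

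Pola2, the second subunit of polymerase alpha, read 6.79, 6.82, 6.69 and 6.68 in the lines, against 6.999, 7.44, 7.33 and 7.33 in sorted GMP. It fell by 0.53 on the log2 scale (SE 0.10; adjusted p = 0.000222), with all line arrays below all GMP arrays. Lig1 read 8.26, 8.22, 8.23 and 8.30, against 8.65, 8.64, 8.83 and 8.75 in sorted GMP, with a difference of -0.46 ± 0.08 (SE; adjusted p = 6.85e-05). Pola1, the catalytic subunit, read 9.30, 9.31, 9.44 and 9.48, against 9.79, 9.79, 9.85 and 9.85 in sorted GMP, with a difference of -0.44 ± 0.09 (SE; adjusted p = 0.00134). Neither gene had overlapping groups. Uhrf1 read 9.37, 9.19, 9.37 and 9.33, against 9.64, 9.76, 9.89 and 9.72, with a difference of -0.44 ± 0.09 (SE; adjusted p = 0.00128), again without overlap.

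The decreases lay mostly in 2 roles. Of 6 MCM subunits 5 fell, from Mcm7 at -0.43 and Mcm3 at -0.37 to Mcm4, Mcm2 and Mcm6 at -0.30, -0.26 and -0.25. Of 8 polymerase and primase genes 6 fell, with Prim2 at -0.40, Pole at -0.38, Prim1 at -0.28 and Pold1 at -0.24 beside the alpha subunits. Rfc3 fell by 0.32 on the log2 scale and Rrm1 by 0.23. No licensing or origin firing gene was called, and Rrm2 differed by -0.09 ± 0.12 (SE; adjusted p = 0.71). Pcna differed by -0.15 (adjusted p = 0.253), while its second probe set gave -0.17 (adjusted p = 0.0272). Slbp differed by -0.16 (adjusted p = 0.154), while its second probe set gave -0.29 (adjusted p = 0.0114).

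Other replication genes were divided, with 6 of 37 higher and 9 lower, among them Orc5 at 0.59, Rpa3 at 0.56 and Clspn at -0.44. Of 23 mitosis genes 1 was higher and 4 lower, with Kif23 at -0.75. Of 27 other nucleotide genes 4 were higher and 5 lower, and of 23 E2F and G1/S regulators 4 were higher and 1 lower. Of 6 mast cell and basophil genes 4 were lower in the lines and 4 of 11 late neutrophil genes were higher, 3 of 8 monocyte and macrophage genes were lower, and their part was not tested. Mcm4, Mcm7 and Rrm1 were among the 17 genes that rose in LT lines and the 15 that fell in GMP lines; these 2 comparisons share no arrays.

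The difference between those 2 comparisons was tested as an interaction, LT lines minus GMP lines. Of the 43 genes, 19 were called with a positive interaction and none with a negative one, where 9.23% of all genes were called positive and 8.62% negative (17.8% in all). The median was 0.37, against -0.01 over all genes. Rrm2 had 1.56 ± 0.19 (SE; adjusted p = 1.39e-06), Gins1 1.06 ± 0.19 (SE; adjusted p = 0.000239), Cdc6 1.04 ± 0.15 (SE; adjusted p = 2.05e-05) and Mcm7 0.83 ± 0.17 (SE; adjusted p = 0.0012). The other calls included Cdc45 at 0.73, Mcm10 at 0.72, Mcm4 at 0.67, Prim2 at 0.59 and Mcm5 at 0.58.

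Of the 6 MCM subunits 5 had a called interaction, as had 4 of 6 origin firing genes, 3 of 5 licensing genes and 2 of 8 polymerase and primase genes. Without LT line dox replicate 1, 11 of the 43 were called. The sorted arrays enter the interaction on both sides, so it contains the sorted GMP over sorted LT-HSC difference. Of 23 mitosis genes 22 had a positive interaction, as had 15 of 37 other replication genes. Of 27 other nucleotide genes 6 were positive and 1 negative, and of 23 E2F and G1/S regulators 6 were positive and 3 negative. All 5 primary granule, 6 of 8 monocyte and macrophage and 5 of 6 mast cell and basophil genes had a positive interaction. All 8 stem cell genes and 4 of 5 megakaryocyte genes had a negative one, and their part was not tested.

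Dox over no dox was compared within the lines. In LT lines at 48 h, limma called none of the 43 genes, where 0.155% of all genes were called higher and 0.286% lower. None of the 43 reached an unadjusted p under 0.05, for which the share over all genes is not given. The median was -0.01, against 0.00 over all genes. Rrm2 read 9.93 and 9.87 with dox, against 10.20, 10.15 and 9.94 without, with a difference of -0.20 ± 0.16 (SE; adjusted p = 0.935). Cdc6 read 8.04 and 8.10 with dox, against 8.32, 8.38 and 8.18 without, with a difference of -0.22 ± 0.13 (SE; adjusted p = 0.809). Within lines B6-2 and B6-3 the difference was -0.27 and -0.28 for Rrm2 and -0.28 and -0.29 for Cdc6. Rrm2 was lower with dox in all 8 pairs of the same line, and was called in none of the 3 comparisons. Its difference at 72 h was -0.14 in B6-1, -0.08 in B6-2 and -0.13 in B6-3. The GMP lines are given below, and GMP line B6-3 had only -0.005. LT lines B6-2 and B6-3 enter these pairs at both times. Other genes also kept one sign in all 8 pairs. Tk1, by its brighter probe set, was lower with dox, by -0.005 to -0.29. Orc2, Mcm6, Gins2 and Pola1 were higher with dox in every pair. Orc2 ranged from 0.09 to 0.40, Mcm6 from 0.09 to 0.46, Gins2 from 0.0009 to 0.41 and Pola1 from 0.04 to 0.62. Among 27 other nucleotide genes only the purine salvage gene Hprt was called, at 3.00 (adjusted p = 2.49e-09). Line by line, the median dox effect over the 43 genes was 0.0009 in B6-2 and -0.03 in B6-3, against -0.0002 and -0.009 over all genes.

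Late neutrophil markers moved with dox on the same arrays. The median of 11 late neutrophil genes lay between 8.18 and 8.39 with dox at 48 h, against 9.48 to 9.72 without, in the LT lines. It lay between 8.35 and 8.80 with dox, against 9.18 to 10.80 without, at 72 h. In the GMP lines it lay between 6.68 and 7.60 with dox, against 10.42 to 10.98 without. Monocyte and macrophage genes also differed, with 1, 5 and 5 of 8 called lower with dox in these 3 comparisons. The part of these markers in the dox results was not tested.

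At 72 h in LT lines, 3 of the 43 genes rose with dox and none fell, where 3.43% of all genes were called higher and 3.72% lower. The median was 0.12, against -0.03 over all genes. Chaf1b read 7.43, 7.44 and 7.37 with dox, against 7.10, 6.87 and 6.99 without, and rose by 0.42 ± 0.12 (SE; adjusted p = 0.0365). Pole, the catalytic subunit of polymerase epsilon, read 7.67, 7.39 and 7.60 with dox, against 7.28, 7.21 and 7.05 without, and rose by 0.38 ± 0.12 (SE; adjusted p = 0.0459). Mcm6 read 10.06, 10.05 and 10.03 with dox, against 9.71, 9.71 and 9.66 without, and rose by 0.35 ± 0.08 (SE; adjusted p = 0.0078). In none of the 3 did the dox arrays overlap the others, but the 3 were picked by their calls on these same arrays.

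The Mcm6 effect was 0.37, 0.35 and 0.34 in lines B6-1, B6-2 and B6-3. Pole was lost without dox replicate 1 or 3 or any of the no dox arrays, and Chaf1b without any dox array or no dox replicate 2 or 3. Mcm6 was lost when only the arrays compared were fitted (adjusted p = 0.0519). Pola1, at 0.35 (adjusted p = 0.0546), was gained with line as a replicate block. Line medians over the 43 genes were 0.13 in B6-1, 0.18 in B6-2 and 0.11 in B6-3, against -0.06, -0.05 and 0.04 over all genes.

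The dox effect at 72 h minus that at 48 h gave 0 calls among the 43 and 0% called higher or lower over all genes; 3 of the 43 and 1132 of all genes had an unadjusted p under 0.05. Other replication genes had 5 of 37 called higher with dox at 72 h and none lower, with Mtbp at 0.70, Pole4 at 0.45 and Asf1a at 0.36. Of 23 mitosis genes none was called, and 2 had an unadjusted p under 0.05. Of 27 other nucleotide genes 3 were higher. Hprt averaged 10.68 ± 0.10 with dox and 7.15 ± 0.41 without (SD, n = 3 each), a difference of 3.53 (adjusted p = 6.1e-12). Dctd and Ppat differed by 0.79 and 0.36. Of 23 E2F and G1/S regulators 2 were higher, Cdkn2c at 0.67 and Tfdp2 at 0.64.

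**Figure D5:**
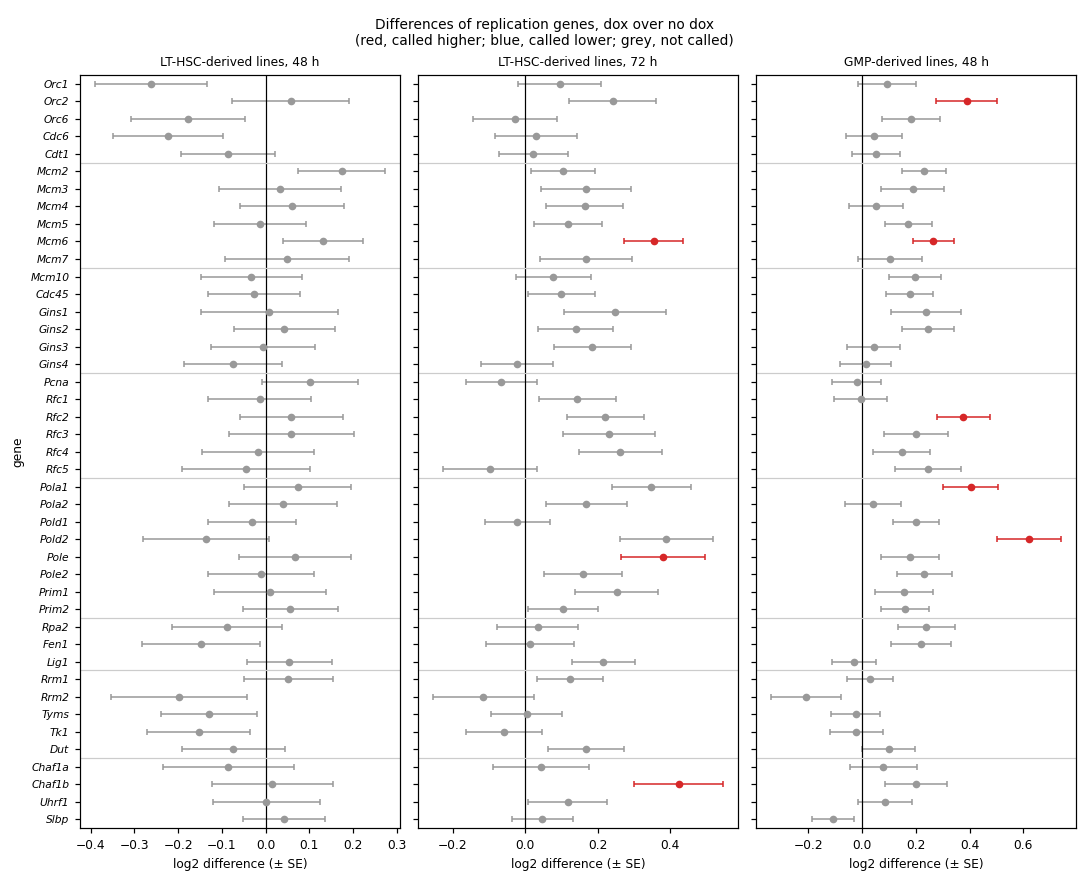
Log2 difference ± SE (horizontal axis, one scale per panel), dox over no dox, of each of the 43 genes in LT lines at 48 h and 72 h and GMP lines at 48 h; red is called higher and grey not called. No point is red in LT lines at 48 h, 3 are red at 72 h and 5 in GMP lines.

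In GMP lines at 48 h, 5 of the 43 genes rose with dox and none fell, where 5.75% of all genes were called higher and 5.18% lower. The median was 0.16, against 0.01 over all genes. Pold2, the accessory subunit of polymerase delta, read 7.44, 7.55, 7.62 and 7.47 with dox, against 6.97, 6.57 and 7.16 without. Its groups were apart and its difference was 0.62 ± 0.12 (SE; adjusted p = 0.00102). Pola1 read 9.30, 9.31, 9.44 and 9.48 with dox, against 9.01, 8.73 and 9.20 without, and rose by 0.40 ± 0.10 (SE; adjusted p = 0.0095). Orc2 read 8.91, 8.57, 8.83 and 8.99, against 8.58, 8.17 and 8.55 without dox, with 1 dox array among the others, and rose by 0.39 ± 0.11 (SE; adjusted p = 0.024).

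Rfc2 read 8.21, 8.33, 8.33 and 8.34 with dox, against 7.89, 7.77 and 8.12 without, and rose by 0.38 ± 0.10 (SE; adjusted p = 0.0127). Mcm6 rose by 0.26 ± 0.08 (SE; adjusted p = 0.0236), but not when line was added as a replicate block (0.24; adjusted p = 0.0749). Without no dox replicate 2 (line B6-3) only Pold2 was called, and the median of the 43 was 0.04. Without no dox replicate 3 (line F6-6) 8 genes were called, and without no dox replicate 1 or dox replicate 4, 3 were.

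Line by line, the dox effect over the 43 genes had a median of 0.11 in B6-2, 0.31 in B6-3 and -0.05 in F6-6. It was positive for 32, 41 and 16 of the 43 genes in these lines. Over all genes 50.4%, 57.6% and 54.9% were positive. Pold2 was higher with dox in each line, by 0.47 in B6-2, 0.98 in B6-3 and 0.46 in F6-6. Rrm2 had effects of -0.34, -0.005 and -0.49 and an uncalled difference of -0.21 ± 0.13 (SE; adjusted p = 0.414).

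With dox, 15 of 27 other nucleotide genes were called higher in these lines and 2 lower. Hprt averaged 10.71 ± 0.04 with dox (SD, n = 4) and 7.60 ± 0.30 without (SD, n = 3), Dctd differed by 0.86, and Samhd1, which degrades deoxynucleotides, by -0.85. Of 37 other replication genes 4 were higher and none lower, with Mtbp at 0.52 and Mcm8 at 0.36. Of 23 E2F and G1/S regulators 2 were higher and 5 lower, with Cdkn2c at 1.07 and Rb1 at -0.59. Of 23 mitosis genes 1 was lower, Mki67 at -0.33.

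The dox effect at 48 h in LT lines minus that in GMP lines was called for none of the 43 genes by limma. Of all genes, 0.161% were called positive and 0.0702% negative. By limma, 5 of the 43 had an unadjusted p under 0.05, for which the share over all genes is not given. Pold2 had the largest interaction, -0.76 ± 0.19 (SE; adjusted p = 0.122). The difference between the 2 dox effects was thus not shown for any of the 43 genes. Without no dox replicate 3 of the GMP lines 1 gene was called.

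LT lines were last compared with GMP lines in the same medium condition at 48 h. With dox, limma called none of the 43 genes, where 1.17% of all genes were called higher and 0.943% lower (2.11% in either direction). By limma, 2 of the 43 had an unadjusted p under 0.05, for which the share over all genes is not given. The differences ran from -0.37 for Pold2 to 0.14, with a median of -0.05. Rrm2 read 9.93 and 9.87 in LT lines, against 9.91, 9.95, 9.54 and 10.06 in GMP lines, and differed by 0.03 ± 0.15 (SE; adjusted p = 0.984). These groups overlapped, in contrast with the wide gap between the sorted cells.

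Without dox, limma again called none of the 43 genes, where 3.52% of all genes were called higher and 3.28% lower (6.8% in either direction). By limma, 7 of the 43 had an unadjusted p under 0.05, for which the share over all genes is not given. The differences ran from -0.17 for Slbp to 0.39 for Pold2 (adjusted p = 0.0759), with a median of 0.09. Without GMP line no dox replicate 3 (line F6-6) 5 genes were called higher, Mcm6, Rfc2, Pola1, Pold2 and Rpa2. Among 27 other nucleotide genes 6 were called higher and 1 lower without dox, with Dctd at 0.66, Dctpp1 at 0.53 and Ppat at 0.53. Mast cell and basophil genes differed between the origins, with a median difference of 1.77 with dox and 2.26 without it. All 6 were higher in LT lines in both conditions with an unadjusted p under 0.05; 1 was called with dox and 6 without, and their part was not tested.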

How the data were processed

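The values are log2 probe set signals in one table that the authors deposited, 34760 probe sets on 26 arrays; how they were normalized is not stated in the labels. The submitters' processing notes name limma and R 3.1.1. RNA (19 ng) was amplified before labelling, per the labels' protocols. Probe sets with 1 symbol (21640; 1321 had several and 11799 none) gave 19937 genes, each taken from its brightest probe set.

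limma 3.58.1 (lmFit, eBayes; R 4.3.3) estimated one mean per group from all arrays jointly, after a test on simulated data; p-values are 2-sided and Benjamini-Hochberg adjusted over all genes. The members and lists were chosen with earlier results of these data known, so no list was tested. Members given array by array are the up to 4 called with the largest increase or decrease in a comparison, plus Mcm5, Pcna, Rrm2, Tyms, Cdc6 and Slbp; members given array by array without a call were chosen after their values were seen. Up to 3 called genes are named from each other list.

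Arrays with and without dox are paired by line name in the titles. Their deviations from group means correlated at 0.34 and 0.21 (LT lines, 48 h), 0.32, -0.06 and 0.26 (72 h), and 0.29, 0.33 and 0.40 (GMP lines). Sorted replicate numbers did not pair, at 0.02 to 0.06. The number of arrays limits precision. Alternatives changed the normalization, centring, dim-gene filter, probe set, fitted groups, prior, array weights, replicate block and arrays. Promoters are from RefSeq on GRCm38.p6.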

Additional observations from a re-analysis of the deposited data

Results flagged for a closer look

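In groups of 4 arrays, 1 array stood apart from the other 3 by Dixon's test in 6 of 129 gene and group pairs, close to the 1 in 20 that chance gives. Sorted LT-HSC replicate 2 was highest for Mcm3 at 8.85, with the others between 8.34 and 8.42, and for Rfc4 at 7.64, with the others between 7.22 and 7.28. Sorted LT-HSC replicate 4 was lowest for Pole2 at 7.27, with the others between 7.61 and 7.67. Among GMP lines with dox, replicate 1 was lowest for Rfc2 at 8.21, with the others between 8.33 and 8.34, and replicate 2 was lowest for Rrm1 at 9.69, with the others between 9.96 and 9.99. Sorted GMP replicate 1 was lowest for Rrm1 at 10.10, although the others lay only between 10.13 and 10.14.

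The difference between lines with dox and their sorted cell of origin was not the same for both origins. The interaction, LT-HSC minus GMP, was 1.56 for Rrm2, 1.06 for Gins1, 1.04 for Cdc6 and 0.83 for Mcm7. It contains the sorted GMP over sorted LT-HSC difference, which was 1.52, 1.30, 1.20 and 0.72 for these genes. Between LT and GMP lines with dox at 48 h, 0 of the 43 genes were called. With 2 and 4 arrays, this does not show that the lines were equal. The interaction also contains that difference between lines, so it is not a result apart from these comparisons.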

How the results depend on the processing

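Of the 39 genes called between sorted cells, 26 were called under every alternative and array left out; the same held for 10 of 17, 8 of 15 and 10 of 19 genes for LT lines over LT-HSC, GMP lines over GMP and their interaction. For dox it held for 0 of 3 genes at 72 h and, in GMP lines, for 1 of 5, Pold2. No called member turned sign under any of them, and none moved the median of all genes by more than 0.1. Pcna, not called between sorted cells, turned to -0.0066 (adjusted p = 0.967) under quantile normalization. The count at 72 h moved from 3 to 5 with the dim filter, 5 with array weights and 1 when only the groups compared were fitted. That last setting gave 2 in GMP lines in place of 5. Without dox, LT over GMP lines had 1 gene under quantile normalization and 3 with array weights in place of 0. In each case the cause was not tested. Leaving out each array in turn gave 34 to 39 genes between sorted cells, 0 at 48 h and 1 to 2 at 72 h for dox in LT lines, and 1 to 8 for dox in GMP lines. It gave 0 to 5 between origins without dox and 0 with dox, 10 to 18 for LT lines over LT-HSC, and 10 to 14 for GMP lines over GMP. It gave 0 to 1 for the dox interaction of the origins and 11 to 21 for the interaction with sorted cells. The E2F core count went from 23 to 14 genes with a leading T, which is a longer motif.

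With line or sorted replicate number as a fixed replicate block, 40 genes were called between sorted cells, 4 at 72 h and 4 in GMP lines; the sorted numbers did not pair the arrays. It lost Mcm6 in GMP lines and Pold1 between sorted cells, and gained Pola1 at 72 h and, between sorted cells, Prim1 (0.23; adjusted p = 0.0455) and Chaf1b (-0.26; adjusted p = 0.0183). It changed no other call, and could not be fitted between origins or between lines and sorted cells. With line as a random replicate block 38, 4 and 5 genes were called. No detection calls were used, so signal over background was not measured.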
